A study of Homo sapiens with 24 samples.

Results

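Keratins are the intermediate filament proteins of epithelial cells. They assemble only as pairs of a type I and a type II chain, so a cell needs transcripts of both types to build filaments. KRT8 (type II) and KRT18 (type I) form the filaments of simple epithelia, KRT7 (type II) and KRT19 (type I) accompany them in ducts such as those of the pancreas, and KRT17 (type I) is made in basal epithelia and upon stress. KRT10 (type I) belongs to the upper epidermis, KRT80 (type II) is found in many epithelia, and KRT81, KRT83 and KRT86 (type II) are hair keratins of the cortex of the hair shaft. The 10 genes KRT8, KRT18, KRT7, KRT19, KRT80, KRT81, KRT83, KRT86, KRT10 and KRT17 were followed among the 60675 genes of the count table, and all 10 were found there by their Ensembl identifiers. They had been picked with levels from these libraries in view, under a heading that names the lines, so the differences between the lines are given as descriptions without p-values. The p-values for changes within a line and for the interaction come from these same libraries. They do not account for that choice and are to be read as descriptions too.

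RNA was sequenced from MIA PaCa-2 cells, a human pancreatic carcinoma cell line, that carried a doxycycline-responsive Tet-On construct. C/EBPδ-inducible cells held the CEBPD cDNA, which encodes the transcription factor C/EBPδ, together with the marker mVenus and were a pool of 3 clones. CTRL cells held the same construct without the cDNA and the marker mCherry. Both lines were collected at 0, 8, 24 and 48 h with 2 µg/mL doxycycline, with 3 wells for each of the 8 groups and 24 libraries in all. The labels give the same dose at 0 h, which the methods describe as untreated. Culture time and doxycycline change together in this series, and p-values measure the spread between wells seeded in parallel. The lines also differ by their clonal history and marker protein, which cannot be told apart from the cDNA in a comparison between lines.

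The libraries held 12731237 to 22598595 counts (median 18959363.5). CEBPD itself is given in CPM (counts per 1e6 of library size, scaled by the TMM factors of edgeR). It was 3.95 ± 0.247 (SD, n = 3) in CTRL cells and 21.6 ± 2.36 in C/EBPδ-inducible cells at 0 h. In the latter it reached 307 ± 12.6 at 24 h, against 3.55 ± 0.129 in CTRL cells. The labelled tissue was checked with 7 ductal markers, of which 5 in CTRL cells and 6 in C/EBPδ-inducible cells had a mean over 1 CPM. Their summed level was 2077 to 2959 CPM in CTRL cells and 117 to 211 CPM in C/EBPδ-inducible cells, nearly all of it from KRT8, KRT18 and KRT19. The keratins of this list, KRT7, KRT8, KRT18 and KRT19, are themselves genes followed here. They are therefore no independent check of the tissue. The epithelial adhesion genes EPCAM and CDH1 were low, with group means of EPCAM of at most 1.37 CPM, and of CDH1 of at most 1.05 CPM in CTRL cells and 0.121 to 4.76 CPM in C/EBPδ-inducible cells. Of 7 mesenchymal markers, VIM and COL1A2 were above 1 CPM, and the list summed to 7135 to 7659 CPM in CTRL cells and 5553 to 6412 CPM in C/EBPδ-inducible cells. The leukocyte marker PTPRC was at 0 in every CTRL library. The 3 immune and endothelial markers summed to at most 0.418 CPM in CTRL cells and to 0.236 to 2.61 CPM in C/EBPδ-inducible cells. In the latter 1 of the 3 had a mean over 1 CPM.

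Of the 10 genes, 7 lie on chromosome 12 and KRT19, KRT10 and KRT17 lie on chromosome 17. KRT8 (GRCh38 chromosome 12, 52897187 to 52949954, minus strand) and KRT18 (52948871 to 52952906, plus strand) overlap by 525 exonic bases on opposite strands, and whether counting used the strand is not given in the sources used here. The hair keratins KRT81 (52285913 to 52291534, minus strand), KRT86 (52249300 to 52309163, plus strand) and KRT83 (52314301 to 52321398, minus strand) are much alike in their coding sequence. KRT81 and KRT86 shared 92.9% of 1452 aligned coding bases with an identical run of 605 bases, KRT81 and KRT83 shared 92.8% of 1464, and KRT83 and KRT86 shared 90.3% of 1450. The longest identical runs of KRT83 were shorter, at 95 bases with KRT81 and 77 bases with KRT86. Since reads were 50 bases long, reads from such runs have more than 1 place of origin. To show how alike these transcripts are, a window of 60 coding bases that is identical in all 3 genes is printed from the GENCODE 44 transcripts on GRCh38. The window lies in coding exonic sequence at chr12:52291184-52291243 (minus strand) in KRT81, chr12:52302139-52302198 (plus strand) in KRT86 and chr12:52321039-52321098 (minus strand) in KRT83.
KRT81: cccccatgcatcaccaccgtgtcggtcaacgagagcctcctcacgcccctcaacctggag
KRT86: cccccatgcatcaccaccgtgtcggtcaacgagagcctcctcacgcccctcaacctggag
KRT83: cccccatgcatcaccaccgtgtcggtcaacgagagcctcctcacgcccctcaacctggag

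A read from this window cannot be given to any of the 3 genes. The 60 coding bases where they differ most lie near the end of the coding sequence, at chr12:52286428-52286487 (minus strand) in KRT81, chr12:52308410-52308469 (plus strand) in KRT86 and chr12:52314753-52314812 (minus strand) in KRT83. Capitals mark the 22 positions at which the 3 sequences are not all the same, and reads from here can tell the genes apart.
KRT81: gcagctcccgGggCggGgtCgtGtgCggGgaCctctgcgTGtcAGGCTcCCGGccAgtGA
KRT86: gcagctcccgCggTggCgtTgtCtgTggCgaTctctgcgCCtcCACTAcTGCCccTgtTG
KRT83: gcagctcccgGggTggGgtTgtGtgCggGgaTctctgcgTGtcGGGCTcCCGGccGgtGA

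Across the whole canonical transcript, exact copies of 50-base stretches were sought elsewhere on the primary nuclear chromosomes and in the other members' canonical transcripts. Spliced transcripts of further genes were not searched. The share of stretches found elsewhere was 47.1% for KRT8, 43.3% for KRT81, 39.1% for KRT18, 34.5% for KRT86, 14.4% for KRT17 and 12.2% for KRT83. It was 1.79% for KRT19, 0.825% for KRT7, 0.418% for KRT80 and 0% for KRT10. For KRT8 and KRT18 the other places holding the most stretches were pseudogenes such as KRT8P3, and 721 stretches were shared by KRT81 and KRT86.

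KRT8 was the keratin with the highest CPM in CTRL cells at every time point and was at least 19.5-fold lower in C/EBPδ-inducible cells. In CTRL cells it stood at 1499, 1594 and 1591 CPM at 0 h, 1413, 1264 and 1221 CPM at 8 h, 1273, 1281 and 1288 CPM at 24 h and 1107, 1005 and 1059 CPM at 48 h. Among C/EBPδ-inducible libraries it stood at 71.8, 75.1 and 76.3 CPM at 0 h, 67.1, 66.9 and 65.7 CPM at 8 h, 34.5, 40.1 and 34.7 CPM at 24 h and 37.2, 36.9 and 36.8 CPM at 48 h. No library of either line came near those of the other, and the ratio of the means, CTRL over C/EBPδ-inducible, was 21.0 at 0 h, 19.5 at 8 h, 35.1 at 24 h and 28.6 at 48 h. In such bulk samples, fewer cells with a transcript and less of it per cell cannot be told apart.

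KRT18, the type I partner of KRT8, had the same order between the lines. Its CTRL libraries lay at 1131, 1175 and 1159 CPM at 0 h, 993, 900.5 and 917 CPM at 8 h, 1021, 999.8 and 991 CPM at 24 h and 899.6, 897 and 897 CPM at 48 h. Its C/EBPδ-inducible libraries lay at 115, 115 and 111 CPM at 0 h, 111, 103 and 109.6 CPM at 8 h, 68.7, 69.5 and 74.0 CPM at 24 h and 84.6, 80.1 and 84.3 CPM at 48 h. The lines did not overlap at any time, and CTRL cells were 10.2-fold higher at 0 h and 14.2-fold higher at 24 h. The gap in KRT18 was therefore smaller than that in KRT8 at each time.

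KRT19, the small type I keratin of ducts, was 179.7, 181 and 187 CPM in CTRL cells at 0 h and 152, 157 and 149 CPM at 24 h, against 15.1, 17.5 and 15.8 CPM and 9.41, 6.58 and 6.66 CPM in C/EBPδ-inducible cells. At 8 h its libraries were at 222, 200.3 and 198 CPM in CTRL cells and at 14.05, 14.8 and 13.05 CPM in C/EBPδ-inducible cells, and at 48 h at 169, 162 and 183 CPM and 13.1, 11.2 and 11.6 CPM. The ratio of CTRL over C/EBPδ-inducible cells ran from 11.3 at 0 h to 20.2 at 24 h, with no overlap between the lines. KRT7, its type II companion in ducts, was at the edge of detection in both lines, with at most 97 counts in any library.

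The hair keratins showed the opposite order. KRT81 was at 0.224, 0.419 and 0.314 CPM in CTRL cells at 0 h and 0.399, 0.588 and 0.685 CPM at 48 h, which is 4 to 20 counts in any CTRL library. In C/EBPδ-inducible cells KRT81 was at 8.80, 10.999 and 10.5 CPM at 0 h, 11.8, 12.4 and 14.2 CPM at 8 h, 51.5, 49.7 and 50.7 CPM at 24 h and 121, 119 and 119 CPM at 48 h. The ratio of C/EBPδ-inducible over CTRL cells was 31.7 at 0 h, 25.1 at 8 h, 88.4 at 24 h and 214 at 48 h, so KRT81 passed KRT8 in CPM in these cells by 24 h. KRT86 followed at a lower level, with 0.906, 1.24 and 1.30 CPM at 0 h and 8.84, 9.21 and 8.94 CPM at 48 h in C/EBPδ-inducible cells against 0.392, 0.0599 and 0.105 CPM and 0.200, 0.411 and 0.0527 CPM in CTRL cells. Its libraries at 24 h were at 6.66, 5.73 and 4.98 CPM in C/EBPδ-inducible cells and at 0.0532, 0.137 and 0.140 CPM in CTRL cells, without overlap.

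KRT83 had no count in any CTRL library at 0, 8 or 24 h and a single count at 48 h. A count of 0 allows a level of up to 0.133 to 0.236 CPM, here on unscaled total counts, in a library of these depths. Such floors and intervals cover counting error only, since reads without molecular identifiers are not independent molecules. C/EBPδ-inducible cells had KRT83 at 1, 0 and 2 counts at 0 h, 4, 1 and 5 at 8 h, 5, 7 and 7 at 24 h and 7, 9 and 4 at 48 h. Set against 3 counts summed over the CTRL group, the level in C/EBPδ-inducible cells was 3.57-fold at 8 h and 6.34-fold at 24 h. The exact 95% counting intervals of the ratio to CTRL cells began at 2.40 at 8 h and 4.67 at 24 h, with no upper end. At 48 h, 20 counts against 1 count gave a ratio of 19.5 with an exact 95% counting interval of 3.12 to 809.

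The likeness of these genes bears on how their counts can be read. There were in C/EBPδ-inducible cells 10.3 to 12.3 KRT86 counts for every 100 KRT81 counts at 0 h, 5.33 to 10.1 at 8 h, 9.83 to 12.9 at 24 h and 7.33 to 7.77 at 48 h. KRT83 counts were at most 2.76 per 100 KRT81 counts in these libraries. The ratio of KRT86 to KRT81 thus varied from 5.33 to 12.9 per 100 over a range of 165 to 2742 KRT81 counts. The plot of KRT81 against KRT86 counts shows each library. At 8 h against 0 h the fitted log2 fold changes differed in sign, at 0.32 for KRT81 and -0.32 for KRT86. Neither passed the FDR of 0.01. How counting treated reads with more than 1 place of origin is not given in the sources used here, and the part of shared reads in the KRT86 and KRT83 counts was not tested.

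**Figure D1:**
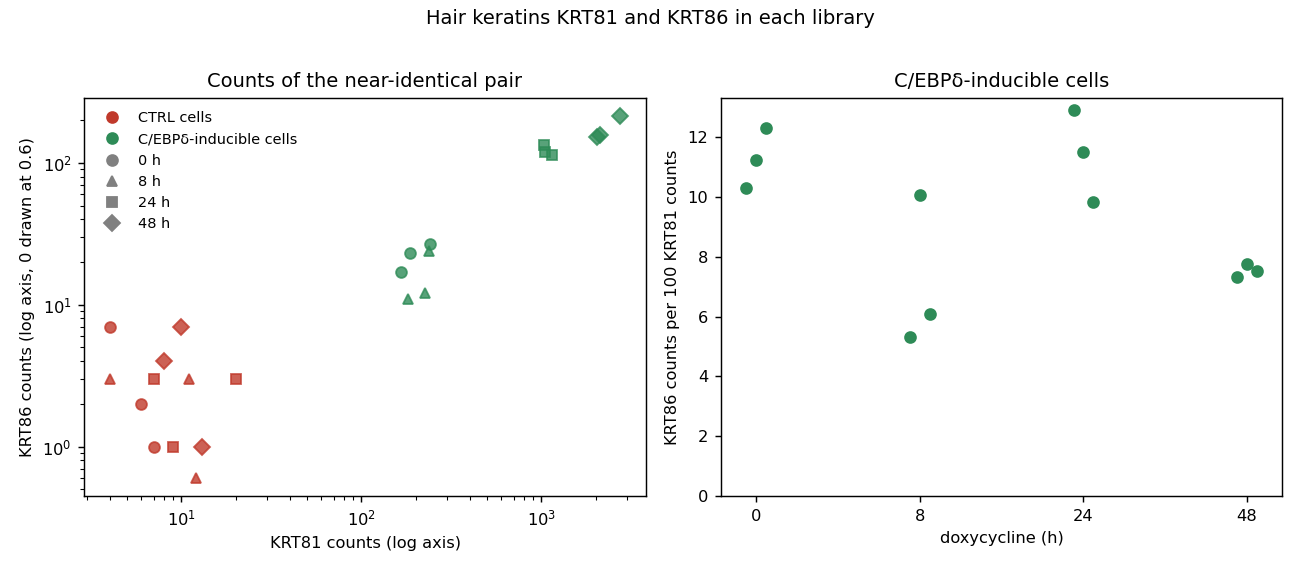
The left panel plots KRT86 counts against KRT81 counts in each of the 24 libraries on log axes, with the colour for the line and the symbol for the time. The right panel plots KRT86 counts per 100 KRT81 counts in the 12 C/EBPδ-inducible libraries, which lie between 5.33 and 12.9.

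KRT80 had smaller differences between the lines than these genes. It was at 108, 109 and 107 CPM in CTRL cells and 163, 164 and 166 CPM in C/EBPδ-inducible cells at 0 h, a ratio of 1.52 for C/EBPδ-inducible over CTRL cells. At 8 h the values were 108, 100.4 and 99.9 CPM against 109, 109 and 119 CPM, and at 24 h they were 111, 116 and 108 CPM against 124, 124 and 126 CPM. At 48 h CTRL cells were at 66.5, 62.9 and 66.3 CPM and C/EBPδ-inducible cells at 131, 119 and 126 CPM, a ratio of 1.92. KRT10 was at 7.14 to 12.1 CPM in the 12 CTRL libraries and 9.39 to 12.4 CPM in the 12 C/EBPδ-inducible libraries, and its lines overlapped at 0, 24 and 48 h. At 8 h the C/EBPδ-inducible libraries lay above those of CTRL cells by a narrow gap.

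**Figure D2:**
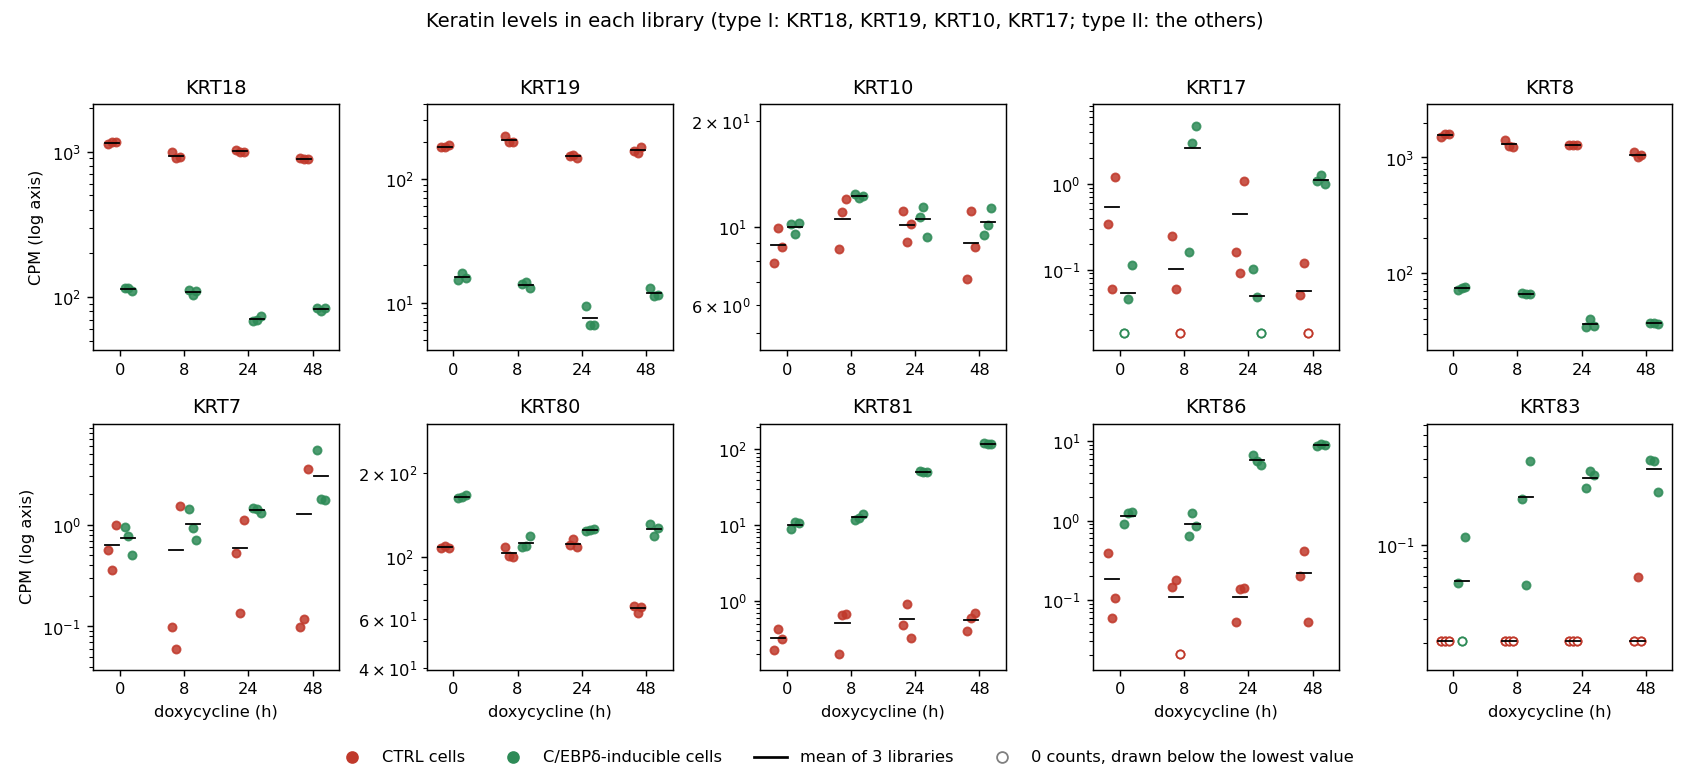
Each panel plots 1 keratin in CPM on a log axis against hours with doxycycline, with a point for each of the 24 libraries coloured by line, a bar for the mean of 3 libraries and open points for libraries with 0 counts. KRT8, KRT18 and KRT19 lie higher in CTRL cells, KRT81 and KRT86 lie higher in C/EBPδ-inducible cells, and the lines overlap in KRT10 at 0, 24 and 48 h.

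As a description only, since the choice of members had fixed much of it, 6 of the 8 tested keratins were past an FDR of 0.01 between C/EBPδ-inducible and CTRL cells at 0 h (43.9% of all genes tested did), 5 of 8 at 8 h (31.8%), 7 of 8 at 24 h (46.9%) and 7 of 9 at 48 h (38.3%). Libraries of the lines did not overlap for any of these called keratins, nor for 60.2%, 54.4%, 61.8% and 57.1% of all genes tested. KRT83 was too low to be tested at any time and KRT17 was tested only at 48 h. The fitted log2 fold changes at 0, 8, 24 and 48 h were -4.40, -4.29, -5.14 and -4.84 for KRT8, -3.36, -3.12, -3.83 and -3.44 for KRT18, and -3.50, -3.89, -4.35 and -3.84 for KRT19. They were 4.96, 4.67, 6.43 and 7.73 for KRT81 and 2.57, 2.99, 5.60 and 5.35 for KRT86. The median of all genes tested was within 0.01 of 0 on this scale in each of these comparisons. Nothing is drawn from these counts.

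To compare the genes with each other, CPM was divided by the length of the canonical transcript in kilobases. Per kilobase, CTRL cells had KRT8 at 875 ± 30.4 (SD, n = 3) and KRT18 at 817 ± 15.8 at 0 h, followed by KRT19 at 131 ± 2.68, KRT80 at 27.9 ± 0.242 and KRT10 at 4.14 ± 0.476. These levels at 0 h did not overlap between neighbours in the order, while KRT7, KRT17, KRT81 and KRT86, at most 0.793 CPM per kilobase in any library, overlapped with their neighbours. At 8 h and 24 h the libraries of KRT8 and KRT18 overlapped. In C/EBPδ-inducible cells at 0 h, KRT18 led at 80.2 ± 1.66 CPM per kilobase, KRT80 at 42.4 ± 0.499 and KRT8 at 41.7 ± 1.30 overlapped, and KRT19 (11.6 ± 0.863) and KRT81 (5.24 ± 0.601) came next. By 48 h KRT81 led at 61.9 ± 0.560, just above KRT18 at 58.8 ± 1.79 with no overlap, and KRT8 stood at 20.7 ± 0.119. With the length of all exons of a gene in place of the canonical transcript, KRT18 came before KRT8 in CTRL cells at every time, KRT80 came before KRT18 in C/EBPδ-inducible cells at 0, 24 and 48 h, and KRT81 came before KRT18 at 24 h as well as at 48 h. The order of these genes therefore rests on the length chosen.

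KRT8 and KRT18 made up 47.1% and 44.03% of the 10 genes' summed level per kilobase in CTRL cells at 0 h, and 43.1% and 46.3% at 48 h. For C/EBPδ-inducible cells KRT8 made up 22.3% and KRT18 42.9% at 0 h, and KRT80 22.7%. At 48 h KRT81 alone made up 31.9%, KRT18 30.3%, KRT80 16.7% and KRT8 10.7%. With the length of all exons, an alternative added after the data were seen, KRT81 made up 44.9%, KRT80 20.8%, KRT18 19.6% and KRT8 3.89% at 48 h, so the size of each share depends on the length while KRT81 led with both. KRT19 made up 7.07% and 8.97% in CTRL cells and 6.20% and 4.44% in C/EBPδ-inducible cells at these times.

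The balance of the partner types was given by type II over type I, with canonical lengths first. Summed over the members, type II over type I per kilobase was 0.948 ± 0.0156 (SD, n = 3) in CTRL cells and 0.937 ± 0.0349 in C/EBPδ-inducible cells at 0 h, with overlapping libraries. In CTRL cells it was 0.924 ± 0.0284 at 8 h, 0.906 ± 0.0177 at 24 h and 0.800 ± 0.0350 at 48 h. In C/EBPδ-inducible cells it was 0.790 ± 0.0147 at 8 h, 1.36 ± 0.0478 at 24 h and 1.66 ± 0.0320 at 48 h, above every CTRL library at 24 and 48 h. With the length of all exons the ratio was 0.55 ± 0.0076 in CTRL cells and 1.12 ± 0.038 in C/EBPδ-inducible cells at 0 h, without overlap, and 0.457 ± 0.019 and 2.70 ± 0.054 at 48 h. The overlap at 0 h thus held only for canonical lengths, and at 8 h the C/EBPδ-inducible libraries lay below those of CTRL cells with canonical lengths and above them with all exons. The ratio of KRT8 to its partner KRT18 was lower in C/EBPδ-inducible cells throughout, from 0.520 ± 0.0253 at 0 h to 0.352 ± 0.0104 at 48 h, against 1.07 ± 0.0194 and 0.932 ± 0.0432 in CTRL cells. With all exons it was 0.293 ± 0.014 and 0.198 ± 0.0059 against 0.603 ± 0.011 and 0.525 ± 0.024. The type I hair keratins, the partners of KRT81 in the hair shaft, had at most 4 counts in any library, the highest of them being KRT32.

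**Figure D3:**
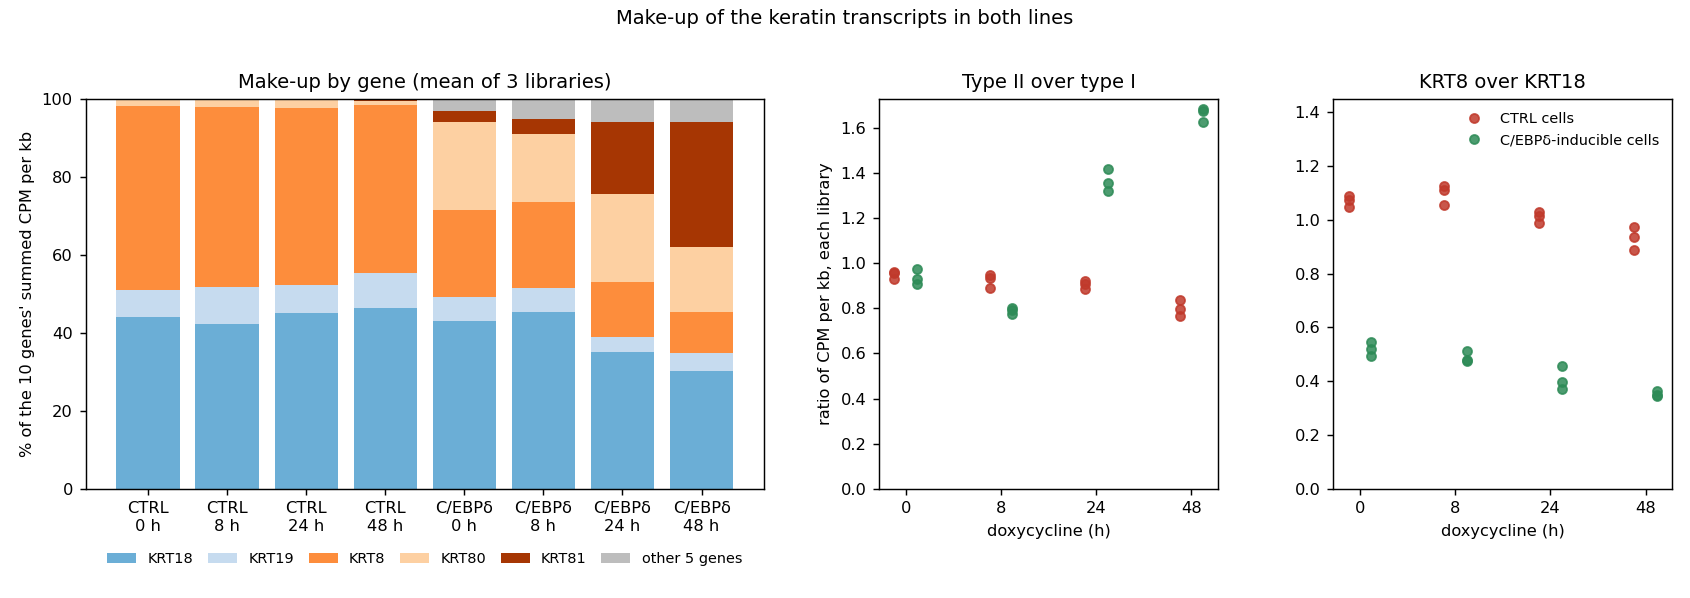
The left panel shows, as stacked bars from 0 to 100%, the share of each keratin in the 10 genes' summed CPM per kilobase of canonical transcript (mean of 3 libraries per group), with type I chains in blue, type II chains in orange and brown and the other 5 genes in grey. The other panels plot the ratio of type II to type I and of KRT8 to KRT18 per kilobase in each library against hours with doxycycline, and type II over type I reaches 1.62 to 1.68 in C/EBPδ-inducible cells at 48 h.

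The members held nearly all keratin counts. Of 54 keratin genes in the family, the 10 accounted for 98.3% to 99.4% of the summed keratin CPM in CTRL libraries, and 92.3% to 99.2% in C/EBPδ-inducible libraries. The family summed to 3039 ± 76.5 CPM at 0 h and 2238 ± 59.5 CPM at 48 h in CTRL cells, and to 396 ± 4.65 CPM and 414 ± 9.16 CPM in C/EBPδ-inducible cells. KRT15 (type I, basal epithelia) was the only other keratin over 4 CPM in any group mean, at 18.4 ± 1.18 CPM in CTRL cells and 4.11 ± 0.842 CPM in C/EBPδ-inducible cells at 0 h.

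The effect of doxycycline itself was addressed within each line against 0 h, with edgeR's quasi-likelihood test and Benjamini-Hochberg adjustment over all genes tested. CTRL cells carry no CEBPD cDNA, and there KRT8, KRT18 and KRT19 fell slightly at 24 h. At 8 h, 1 of 5 tested keratins passed the FDR of 0.01 (1.7% of all genes tested did, 0.905% as higher and 0.793% as lower), which was KRT18 with a log2 fold change of -0.28 ± 0.043 (SE) and an edgeR adjusted p = 0.00547. That call was lost on leaving out any 1 of the 0 h libraries or replicate 2 at 8 h (edgeR adjusted p = 0.0294 to 0.0499) and with a replicate block (0.0559), and over all alternatives the adjusted p ranged from 7.18e-10 to 0.0610. At 24 h, 3 of 6 passed (6.06% of all genes, 2.81% as higher and 3.25% as lower), all lower, namely KRT8 (-0.28 ± 0.024, edgeR adjusted p = 6.66e-08), KRT18 (-0.20 ± 0.022, 3.37e-06) and KRT19 (-0.25 ± 0.034, 3.90e-05). The KRT19 call was lost in a model of all 24 libraries (0.0171) and without the CTRL libraries numbered 3 (0.0150). At 48 h, 3 of 6 passed (30% of all genes, 15.2% as higher and 14.7% as lower), again all lower, with KRT8 at -0.57 ± 0.042, KRT18 at -0.37 ± 0.031 and KRT80 at -0.73 ± 0.051 (edgeR adjusted p = 9.56e-07, 2.63e-06 and 5.57e-07). In each of these calls the 3 treated libraries lay below all 3 libraries at 0 h, and 26.7%, 28.6% and 52.7% of all genes tested were without overlap at 8, 24 and 48 h.

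With the CEBPD cDNA, KRT8, KRT18, KRT19 and KRT80 fell and the hair keratins KRT81 and KRT86 rose by 24 h. At 8 h, 2 of 8 tested keratins passed (30.5% of all genes tested, 14.6% as higher and 15.8% as lower), KRT8 at -0.17 ± 0.036 (edgeR adjusted p = 0.000681) and KRT80 at -0.56 ± 0.035 (5.93e-11), while KRT81 at 0.32 ± 0.10 missed the cut-off (edgeR adjusted p = 0.0144). The KRT8 call was lost in a model of all 24 libraries (0.0216) and without replicates 2 and 3 at 8 h (0.0595), which hold squamous keratin counts described further on. At 24 h, 6 of 8 passed (15.5% of all genes, 7.33% as higher and 8.14% as lower). KRT8 fell by 1.03 ± 0.052 on the log2 scale to 49.0% of its mean CPM at 0 h (edgeR adjusted p = 2.17e-13), KRT19 fell by 1.10 ± 0.109 (2.97e-08), KRT18 fell by 0.68 ± 0.040 (4.02e-12) and KRT80 fell by 0.40 ± 0.034 (2.35e-09). KRT81 rose by 2.32 ± 0.068, a ratio of 5.01 in mean CPM (edgeR adjusted p = 8.71e-18), and KRT86 rose by 2.33 ± 0.185, a ratio of 5.05 (7.50e-10). The 3 libraries at 24 h lay on 1 side of all 3 libraries at 0 h for each of the 6, as they did for 36.5% of all genes tested.

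At 48 h, 8 of 9 tested keratins passed in C/EBPδ-inducible cells (38.7% of all genes tested, 19.1% as higher and 19.5% as lower), and none of the 8 overlapped with 0 h, as was so for 55.5% of all genes. At 8 h this share was 49.7%. KRT81 had risen by 3.55 ± 0.057, or 11.8-fold in mean CPM, and KRT86 by 2.95 ± 0.154, or 7.85-fold (edgeR adjusted p = 3.07e-25 and 1.94e-14). KRT8 remained at 49.6% of its 0 h mean with a log2 fold change of -1.02 ± 0.045, while KRT18 (-0.46 ± 0.038) and KRT19 (-0.45 ± 0.086) were closer to their 0 h levels than at 24 h, and KRT80 was at -0.40 ± 0.037. Without replicates 2 and 3 at 48 h, KRT19 was at -0.30 and lost its call (edgeR adjusted p = 0.0359). The difference between 24 and 48 h was not tested. KRT7 and KRT17 passed as higher as well, and both rest on few counts. KRT10 passed in no comparison, with a largest log2 fold change in C/EBPδ-inducible cells of 0.29 ± 0.088 at 8 h (edgeR adjusted p = 0.0114).

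Whether the change with doxycycline and time differed between the lines was tested as an interaction. This is the change from 0 h in C/EBPδ-inducible cells minus that in CTRL cells. At 8 h, 1 of 9 tested keratins passed (1.66% of all genes tested, 0.887% as higher and 0.77% as lower), KRT80 at -0.49 ± 0.065 (edgeR adjusted p = 0.000422). At 24 h, 4 of 8 passed (5.84% of all genes, 2.86% as higher and 2.98% as lower), all 4 with a negative difference. These were KRT8 (-0.74 ± 0.055, edgeR adjusted p = 6.19e-10), KRT18 (-0.47 ± 0.041, 1.05e-08), KRT19 (-0.84 ± 0.105, 3.01e-06) and KRT80 (-0.44 ± 0.047, 3.23e-07). The log2 fold change of KRT80 in CTRL cells at 24 h was 0.05 ± 0.036 and missed the cut-off (edgeR adjusted p = 0.457). The differences for KRT81 (1.47 ± 0.487, edgeR adjusted p = 0.0568) and KRT86 (3.03 ± 0.776, 0.0114) missed the cut-off at 24 h, where the CTRL groups held 17 and 36 KRT81 counts and 10 and 7 KRT86 counts in all. Without CTRL replicate 2 at 24 h KRT81 passed (2.01, edgeR adjusted p = 0.00812), without CTRL replicate 2 at 0 h KRT86 passed (0.00559), and without CTRL replicate 1 at 0 h KRT86 was at 1.93.

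At 48 h, 4 of 9 passed in the interaction (5.54% of all genes tested, 2.83% as higher and 2.72% as lower). KRT81 was at 2.75 ± 0.434 (edgeR adjusted p = 0.000276), KRT8 at -0.46 ± 0.057 (1.95e-05) and KRT80 at 0.32 ± 0.059 (0.00113). The sign of KRT80 had turned from 24 to 48 h, as its CTRL level fell from 112 ± 3.78 to 65.3 ± 2.01 CPM while its level in C/EBPδ-inducible cells was 125 ± 1.07 and 126 ± 6.13 CPM. The fourth was KRT17. KRT86 at 2.75 ± 0.771 (edgeR adjusted p = 0.0276) missed the cut-off and passed with DESeq2 at 0.00143 and without CTRL replicate 2 at 48 h, but was at 1.66 without CTRL replicate 1 at 0 h, and KRT18 at 48 h was at -0.10 ± 0.045.

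**Figure D4:**
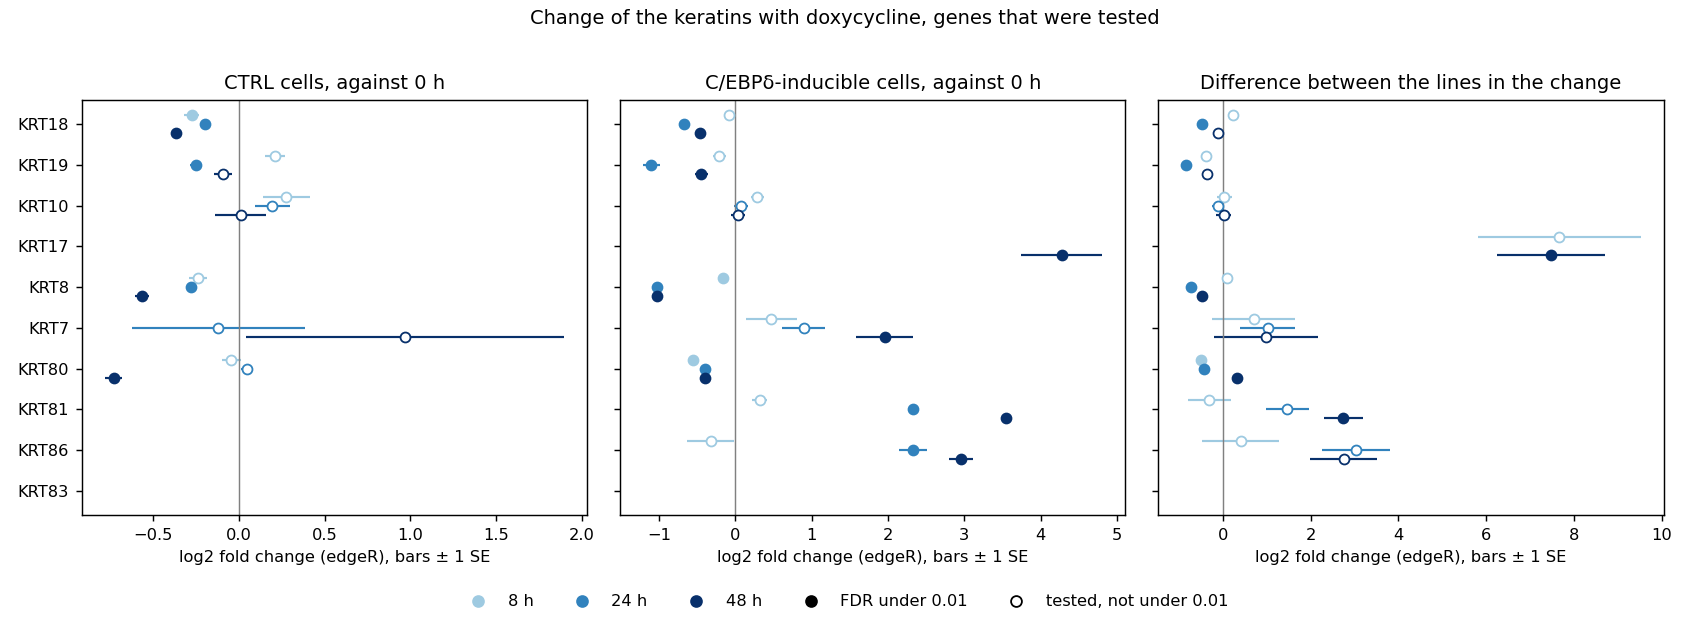
The panels plot the fitted log2 fold change (point) with 1 SE on each side (bar) of each tested keratin at 8, 24 and 48 h against 0 h in CTRL cells and in C/EBPδ-inducible cells, and the difference between the lines in that change, each on its own scale. Filled points passed the FDR of 0.01, and KRT81 and KRT86 reach 3.55 and 2.95 in C/EBPδ-inducible cells at 48 h.

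KRT7 and KRT17 had few counts, and these differed widely between libraries of a group. KRT7 had 10, 6 and 19 counts in CTRL cells at 0 h, 2, 1 and 27 at 8 h, 10, 3 and 24 at 24 h and 2, 2 and 68 at 48 h, so the library numbered 3 was the highest of each CTRL group. The C/EBPδ-inducible libraries had KRT7 at 18, 17 and 9 counts at 0 h, 27, 18 and 9 at 8 h, 29, 30 and 30 at 24 h and 97, 42 and 30 at 48 h. Its rise at 48 h against 0 h was 1.95 ± 0.377 (edgeR adjusted p = 0.000108), was 1.23 ± 0.314 without replicate 1 at 48 h, and missed the cut-off in a model of all 24 libraries (adjusted p = 0.0413, with alternatives from 2.02e-14).

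KRT17 had 6, 1 and 23 counts at 0 h, 5, 1 and 0 at 8 h, 3, 2 and 23 at 24 h and 1, 2 and 0 at 48 h in CTRL cells. In C/EBPδ-inducible cells it had 0, 1 and 2 counts at 0 h, 3, 57 and 59 at 8 h, 2, 1 and 0 at 24 h and 19, 29 and 17 at 48 h. The libraries at 48 h thus lay above all those at 0 h, those at 8 h split in their own group, and those at 24 h were at the level of 0 h. The test at 48 h against 0 h gave 4.27 ± 0.536 (edgeR adjusted p = 2.57e-07) and the interaction 7.47 ± 1.23 (0.000432), and as these rest on groups with 3 counts in all, the fitted sizes are no measure of the fold. The interaction call was lost without the CTRL libraries numbered 3 (adjusted p = 0.0109, alternatives from 6.05e-14), and DESeq2 gave it no p-value.

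Other keratins of stratified epithelia, picked after their values were seen, were high in the same C/EBPδ-inducible libraries. KRT5, the type II keratin of basal cells, had 0, 40 and 82 counts at 8 h and 3, 102 and 97 counts at 48 h, and at most 2 counts in every other library. KRT14, its partner, had 3, 45 and 10 counts at 8 h and 0, 54 and 3 at 48 h, and KRT6A had 0, 8 and 126 and 1, 17 and 33. The desmosomal cadherin DSC3 had 0, 36 and 49 counts at 8 h and 3, 21 and 11 at 48 h. Replicate 1 at 48 h had 19 KRT17 counts beside 3, 0 and 1 counts of KRT5, KRT14 and KRT6A. Without replicates 2 and 3 of the group, KRT17 at 48 h was 4.22 ± 0.797 (edgeR adjusted p = 0.000277), a value that takes the lone library to vary like the 0 h group, and the KRT17 interaction at 8 h dropped from 7.67 ± 1.85 to 3.76 ± 2.19. The simple keratin KRT20 and KRT23 stood out elsewhere, with 23 and 34 and with 13 and 13 counts in replicate 1 of the CTRL groups at 0 and 24 h. The source of these counts and their part in the KRT7 and KRT17 results were not tested.

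**Figure D5:**
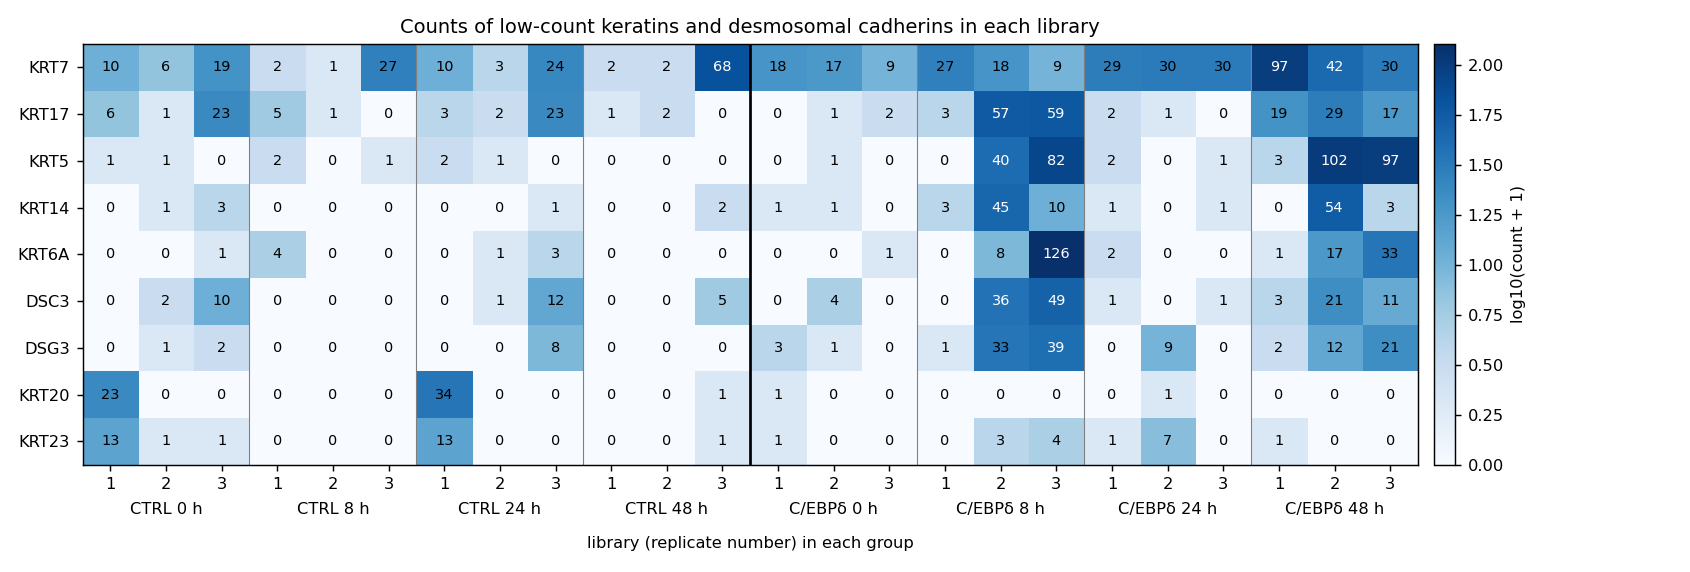
The grid gives the count of KRT7, KRT17 and 7 further genes (rows) in each of the 24 libraries (columns, by replicate number in each group), shaded by log10(count + 1). KRT5, KRT6A and DSG3 are highest in replicates 2 and 3 of the C/EBPδ-inducible groups at 8 and 48 h, DSC3 also reaches 10 and 12 counts in CTRL replicate 3 at 0 and 24 h, KRT17 is also raised in replicate 1 at 48 h, and KRT7 is highest in replicate 3 of each CTRL group.

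Pseudogenes bear on KRT8 and KRT18. The 51 KRT8 pseudogenes in the table summed to 4.795% to 5.70% of the KRT8 count in CTRL libraries and to 16.5% to 36.8% in C/EBPδ-inducible libraries, and the 67 KRT18 pseudogenes to 4.12% to 6.30% and 8.06% to 11.3% of KRT18. KRT8P3 was lower in C/EBPδ-inducible cells at 24 h by a log2 fold change of -4.64 ± 0.140 and KRT18P29 by -4.54 ± 0.192, beside -5.14 for KRT8 and -3.83 for KRT18. Reads from such copies and from KRT8 and KRT18 cannot be fully separated, and their part in the differences was not tested.

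The genes whose mean log2(CPM + 1) over the 8 groups followed a member most closely were named by the smallest root mean square difference from it after centring, over 17022 genes. For KRT8 they were RGS5 (0.19), HOXB6 (0.28) and PRAG1 (0.35). For KRT18 they were CACNG4 (0.14), KRT8P3 (0.15) and ARHGAP5-AS1 (0.19), and for KRT19 they were KRT8P3 (0.22), F2RL1 (0.24) and CACNG4 (0.25). For KRT81 the closest were IGFBP5 (0.47), PKD1L1-AS1 (0.79) and CACNG6 (0.86), and for KRT86 they were GDF15 (0.16), ORM1 (0.33) and CHST11 (0.37). KRT80 was closest to GNB1L (0.11), H1-5 (0.12) and H2AC7 (0.12), KRT7 to HMGCS1 (0.097), FAM9C (0.10) and RAB20 (0.11), and KRT17 to COL12A1 (0.13), DSC3 (0.16) and KRT6A (0.17). The group means of KRT7 and KRT17 are near the floor of this scale and depend on few libraries in some groups. KRT7 had 2, 2 and 68 counts in CTRL cells at 48 h. KRT17 had 3, 57 and 59 counts in C/EBPδ-inducible cells at 8 h, where DSC3 and KRT6A were also higher in replicates 2 and 3 than in replicate 1. KRT10 varied too little over the groups to be matched.

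Genes of the structures that keratins attach to were counted from lists. Hemidesmosomes anchor keratins to the basement membrane, and in the interaction at 24 h 3 of 7 tested genes passed (5.84% of all genes tested), all lower. ITGB4, the integrin chain that binds plectin, was at -0.95 ± 0.062, its partner ITGA6 at -0.70 ± 0.078 and COL17A1 at -0.55 ± 0.062 (edgeR adjusted p = 6.29e-11, 5.14e-07 and 5.95e-07). ITGB4 fell by 1.16 ± 0.052 on the log2 scale to 22.3 ± 0.548 CPM in C/EBPδ-inducible cells at 24 h and by 0.21 ± 0.039 to 96.9 ± 4.63 CPM in CTRL cells. The interaction at 48 h had 3 of 7 lower (2.72% of all genes tested were lower) and that at 8 h 1 of 7 (0.77%).

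Of 11 tested desmosome and cytolinker genes, 2 passed in the interaction at 24 h (5.84% of all genes tested did, 2.98% as lower). Both were lower, the plakophilin PKP3 (-0.66 ± 0.116) and the spectraplakin DST (-0.24 ± 0.037). In the interactions at 8 h and at 48 h, 0 of 12 tested genes of this list passed. Among 7 tested other intermediate filament genes, 2 passed in the interaction at 24 h, beside the same 5.84% of all genes. These were the nuclear lamin LMNA (-0.68 ± 0.053) and nestin, NES (-1.33 ± 0.120), both lower. NES, the filament of progenitor cells, went from 25.8 ± 1.82 to 14.2 ± 0.655 CPM in C/EBPδ-inducible cells and from 8.20 ± 0.367 to 11.5 ± 1.23 CPM in CTRL cells. Vimentin, VIM, the filament of mesenchymal cells, was at 6941 ± 58.9 CPM in CTRL and 5846 ± 66.4 CPM in C/EBPδ-inducible cells at 0 h.

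Of 10 keratin-binding genes, 2 passed in the interaction at 24 h (5.84% of all genes tested did, 2.86% as higher and 2.98% as lower). These were FAM83H (0.31 ± 0.063), which recruits a kinase to keratins, and YWHAZ (-0.17 ± 0.039). Of 9 tested epithelial transcription and splicing factors, 3 passed there, EHF (0.75 ± 0.053) and TP63 (0.29 ± 0.055), a factor of basal epithelia, as higher and KLF4 (-0.28 ± 0.068) as lower. Among the non-member keratins KRT15 passed with -0.99 ± 0.199 (edgeR adjusted p = 0.00124), and went from 4.11 ± 0.842 CPM at 0 h to 1.75 ± 0.248 CPM at 24 h and 5.56 ± 0.560 CPM at 48 h in C/EBPδ-inducible cells. Its CTRL levels at these times were 18.4 ± 1.18, 15.7 ± 1.55 and 32.6 ± 2.87 CPM, and its interaction at 48 h missed the cut-off (-0.43 ± 0.171, edgeR adjusted p = 0.130). KRT13 missed the cut-off at -1.50 ± 0.452 (edgeR adjusted p = 0.0338).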

How the data were processed

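rRNA-depleted total RNA was sequenced as 50-base reads. The authors trimmed the reads (Trimmomatic 0.36 per the labels), aligned them to GRCh38 (HISAT2, 2.3.4.3 per the labels) and deposited whole-number HTSeq counts per Ensembl gene for each library. Strand setting and treatment of reads with several origins are not given in the sources used here. The members and gene lists were chosen with earlier results of these data known, and all 10 members were named in every comparison; other list genes were named by rank of change at 24 h (up to 4 per list between lines and 4 in the interaction). Of 60675 identifiers, 56558 matched GENCODE 44.

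CPM used the library sizes of the genes that passed filterByExpr over all 24 libraries, multiplied by TMM factors. Floors and counting intervals used total counts. Tests used edgeR 4.0.16 in R 4.3.3 (TMM, filterByExpr, quasi-likelihood), with the groups compared only, Benjamini-Hochberg adjustment and an FDR of 0.01, after checks on simulated counts. Alternatives were DESeq2 1.42.0, other size factors, no filter, a stricter filter (10 counts or more per library), 1 fit over the 24 libraries, a replicate block and leaving out each library. Leaving out the libraries with squamous keratins, or every CTRL library numbered 3, and dividing by the length of all exons, was chosen after seeing the data. Same-numbered libraries deviated together in each pair (correlation of at least 0.11) only for CTRL cells at 0 and 24 h; there the replicate block left 3 keratins called.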

Additional observations from a re-analysis of the deposited data

Results flagged for a closer look

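The change with doxycycline and culture time differed between the lines for 9 pairs of keratin and time by the edgeR interaction test with Benjamini-Hochberg adjustment. At 8 h this was KRT80 (log2 difference -0.49, adjusted p = 0.000422). At 24 h these were KRT8 (-0.74), KRT18 (-0.47), KRT19 (-0.84) and KRT80 (-0.44). At 48 h these were KRT8 (-0.46), KRT80 (0.32), KRT81 (2.75) and KRT17 (7.47). The KRT80 difference passed with opposite signs at 24 and 48 h. The KRT17 value rests on groups with 3 counts in all. In C/EBPδ-inducible cells at 48 h KRT5 was raised in replicates 2 and 3, and KRT14 in replicate 2. Replicate 1 of that group had 19 KRT17 counts beside 3 KRT5 counts and 0 KRT14 counts.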

How the results depend on the processing

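Counts of keratins that passed moved by over 1.5 times as follows. With at least 10 counts in every library, 3 passed between the lines at 8 h, 4 at 24 h, 4 at 48 h and 2 in the interaction at 48 h, since KRT81, KRT86, KRT7 and KRT17 had fewer in some library. Without a filter, 2 passed in CTRL cells at 8 h, 4 in C/EBPδ-inducible cells at 8 h and 4 in the interaction at 8 h. With a model of all 24 libraries, 2 passed in CTRL cells at 8 h and 3 in the interaction at 8 h. The replicate block left 0 in CTRL cells at 8 h and gave 3 in C/EBPδ-inducible cells at 8 h, with KRT81 added (edgeR adjusted p = 0.00545). It gave the same counts in the other comparisons. Outside CTRL cells at 0 and 24 h, whether same-numbered libraries share more than a number was not settled. Leaving out 1 library gave 0 to 2 in CTRL cells at 8 h (0 without each 0 h library or replicate 2 at 8 h) and 1 to 3 in the interaction at 8 h (3 without CTRL replicate 1 at 8 h). Without the CTRL libraries numbered 3, 0 passed in CTRL cells at 8 h and 2 in the interaction at 8 h, and without both squamous libraries 1 in C/EBPδ-inducible cells at 8 h. Other counts stayed within 1.5 times, and no fold change of a called member reversed. The KRT7 call between the lines at 24 h was lost without 5 of its 6 libraries, and KRT80's without CTRL replicate 3. The cause was not tested. Depth limits KRT83, KRT17, KRT7 and the CTRL levels of KRT81 and KRT86.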
